A study of Homo sapiens with 2 samples.

Results

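The 30 genes described here encode enzymes of cholesterol synthesis (17 genes), enzymes of fatty acid synthesis (9 genes) and the regulators that set the transcription of both (4 genes). They were chosen by gene name, and each was found on the array through the RefSeq accession of its probes, which gave 35 probes for the 30 genes. Of these genes, 29 were measured, out of 13812 measured genes in all. To count as measured, a gene needed a probe free of outlier spots that the scanner software called well above background in each of the 4 channels. TM7SF2 was left out because of an outlier spot. The cells were RWPE-1, a noncancerous human prostate epithelial line immortalised with a human papillomavirus and grown in keratinocyte serum-free medium. They were transfected with 30 nM of a synthetic precursor of the microRNA miR-424 (pre-miR-424) or of Negative control #1. RNA of both cultures was hybridised together to 2 Agilent two-colour arrays. On the array with normal labelling pre-miR-424 carried Cy5 and control Cy3, and on the dye swap the dyes were exchanged. The labels call the arrays technical replicates, so the comparison has 1 replicate and no p-value was computed. The time after transfection is not given in the sources used here.

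Cholesterol is built from acetyl-CoA through mevalonate and the isoprenoids to squalene, which is closed into lanosterol and trimmed step by step to cholesterol. Fatty acids are built from the same acetyl-CoA, then lengthened, desaturated and activated as acyl-CoA. Both branches are driven by the sterol regulatory element binding proteins (SREBPs), transcription factors held in the endoplasmic reticulum together with the escort SCAP and the retention protein INSIG1 while sterols are plentiful, and released to the nucleus when sterols fall.

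The delivered microRNA is shown because its seed, bases 2 to 8 in capitals, is the part that pairs with target messages. According to RefSeq (GRCh38.p14) it is encoded on the minus strand at chrX:134546680-134546701, and 7 mature human microRNAs in that table, among them miR-15a-5p, miR-16-5p, miR-195-5p and miR-497-5p, carry the same seed.
hsa-miR-424-5p: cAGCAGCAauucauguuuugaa

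Values below are log2 ratios of pre-miR-424 over control, so that 0 is no difference and a positive value means more RNA with pre-miR-424. Across all measured genes the median ratio was −0.004, and the median SD between the 2 arrays was 0.13, against 0.15 for the 29 synthesis genes. These were bright genes, the median member exceeding 88.2% of all genes in signal, and none of the spots was saturated. The difference between the arrays divided by 2, which holds dye and hybridisation effects alone, had an SD of 0.16 over all genes. A mean ratio of that size is therefore within the array error. The tissue label was checked against markers. All 7 basal epithelial markers were well above background in every channel, with mean ratios from −0.50 (KRT5, with 0.09 and −1.09 on the arrays) to 0.32 (ITGA6), whereas the luminal marker KLK3, the stromal markers COL1A2 and LUM and the endothelial marker PECAM1 were in no channel. KLK2, COL1A1, DCN, PTPRC, CD14 and CDH5 were also above background throughout. Their mean ratios lay between −0.07 (PTPRC) and 0.17 (DCN). The part of any marker in the results was not tested.

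None of the 29 members was 1.5-fold higher or 1.5-fold lower on both arrays, and none was past a lower threshold, a log2 ratio of 0.32 in size. INSIG1 fell just short of the latter, with 0.3198 on the swap against a cut of 0.3219. Among all measured genes 0.623% were at least 1.5-fold higher and 0.391% at least 1.5-fold lower on both arrays, and at the lower threshold the shares were 2.38% and 2.29%. What the members showed was a modest lean upwards, mainly in the cholesterol branch. Its size was about that of the array error given above, which is for single genes and does not measure the error of a median over genes. With pre-miR-424, 13 of the 29 (44.8%) were higher on both arrays, against 26.8% of all genes, and 6 (20.7%) were lower on both, against 26.7%. For the other 10 the arrays gave opposite signs. Genes were counted by sign alone. Some on each side had a mean within the array error, such as FDPS (0.13) among the higher and FASN (−0.14) among the lower. The shares are descriptions and were not tested against each other. The members were brighter than most genes, with a median log2 signal of 13.50 against 10.53 over all genes. The shares over all genes are therefore not those of equally bright genes. The median ratio of the 29 was 0.13, with medians of 0.12 (normal labelling) and 0.09 (swap). The 16 measured cholesterol enzymes centred on 0.17 (0.14 with normal labelling, 0.17 with the swap). Of these, 8 were higher and 1 was lower on both, and 7 had opposite signs on the arrays. The 9 fatty acid enzymes centred on −0.03 (−0.01 and 0.04), 3 higher and 3 lower. With median centring used instead of loess, 6 members were higher and 1 was lower on both arrays, and the medians were 0.11 for the cholesterol and −0.09 for the fatty acid enzymes. That centring left the medians of all genes at 0.13 and −0.23 on the 2 arrays. With those medians taken off, the counts were 9 and 4, and the medians of the enzymes were 0.16 and −0.04.

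**Figure D1:**
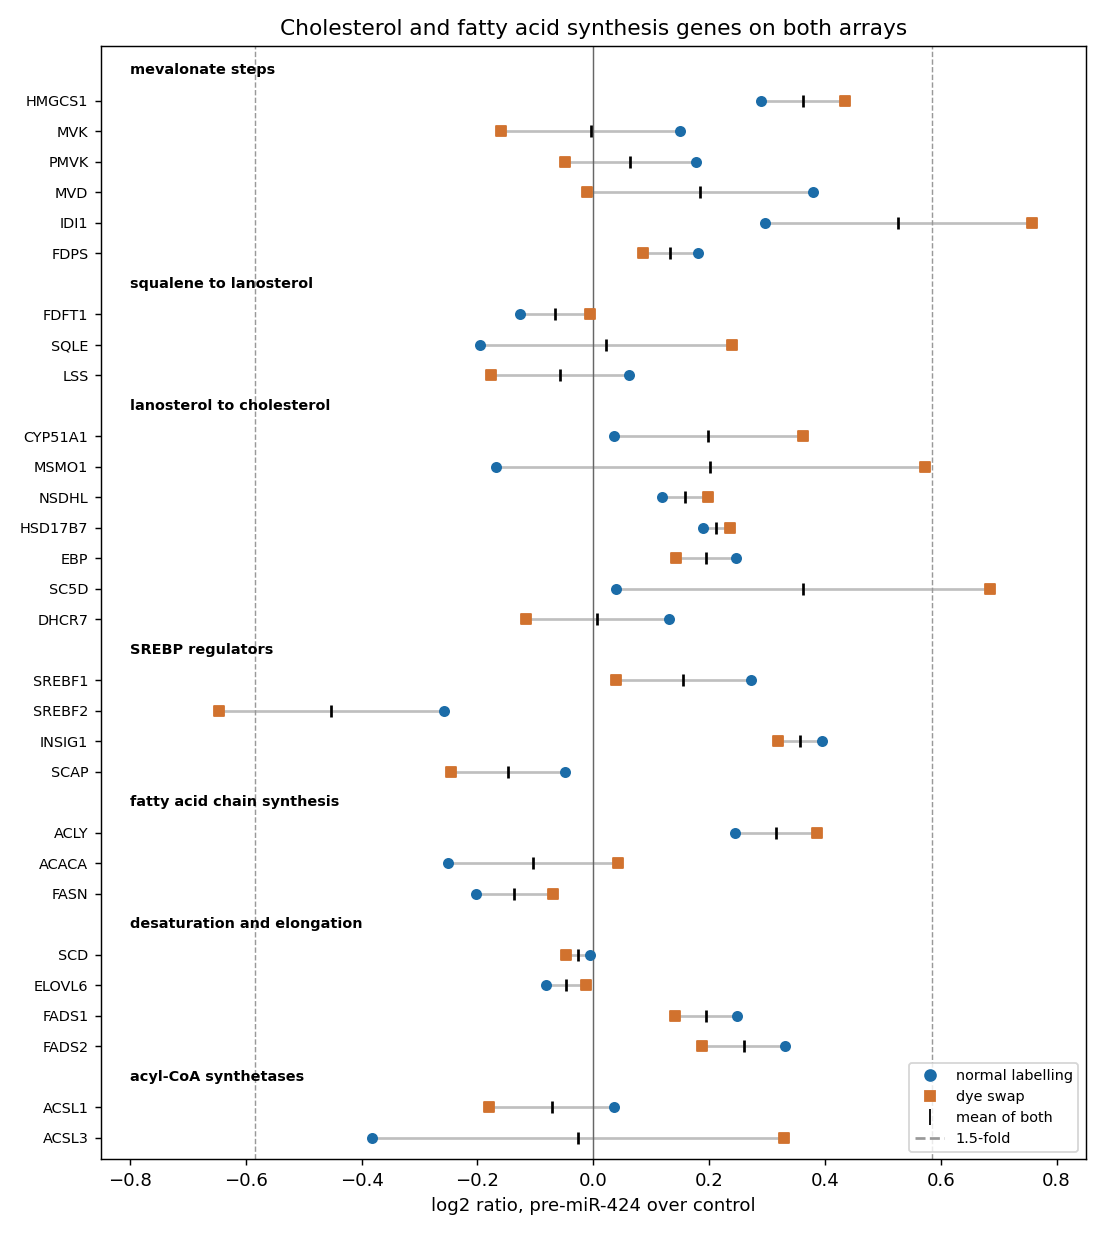
Log2 ratio of pre-miR-424 over control (horizontal axis) for the 29 measured genes, grouped by role. Circles are the array with normal labelling, squares the dye swap, ticks their mean and dashed lines 1.5-fold. IDI1 and SC5D pass the upper line and SREBF2 the lower one on the swap, and none of the genes passes a line on the normal array.

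The plot of the members by role shows the widest gaps between arrays at SC5D, MSMO1 and ACSL3. For the reading that follows, a gene whose 2 points lie on opposite sides of 0 has no settled direction.

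In the mevalonate steps, which turn acetyl-CoA units into isoprenoids, 3 of 6 genes (50%) were higher on both arrays and none was lower. Over all measured genes the shares were 26.8% and 26.7%. IDI1 (NM_004508), the isomerase that makes the reactive isoprenoid dimethylallyl diphosphate, had the largest mean ratio of the members. Its normalized log2 signal was 14.29 with pre-miR-424 and 14.00 in control on the normal array, and 14.62 against 13.87 on the swap. Both pairs differed in the same direction, the swap by more, with ratios of 0.30 and 0.76 and a mean of 0.53 ± 0.33 (SD of the 2 arrays), or 1.44-fold. Of all measured genes, 2.45% had a mean ratio at least as large in size. HMGCS1 (NM_002130), the cytosolic synthase that makes HMG-CoA, read 14.14 with pre-miR-424 against 13.85 in control on the normal array and 14.29 against 13.86 on the swap. The arrays stood close together here, at ratios of 0.29 and 0.43 (mean 0.36 ± 0.10, 1.29-fold), and the control signals were nearly equal. FDPS (NM_002004), which joins isoprenoids into farnesyl diphosphate, had smaller ratios of 0.18 and 0.09. The kinases MVK (0.15 and −0.16) and PMVK (0.18 and −0.05), which phosphorylate mevalonate in turn, and the decarboxylase MVD (0.38 and −0.01) were positive on the normal array only.

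In the 3 steps from farnesyl diphosphate to lanosterol, 0 genes were higher and 1 was lower on both arrays. Over all measured genes 26.8% were higher and 26.7% lower on both. The median of the 3 was −0.06, which is the value of LSS by its brighter probe and so depends on the choice of probe. FDFT1 (NM_004462), the squalene synthase, had ratios of −0.13 and −0.01. SQLE (NM_003129), the oxygen-dependent squalene epoxidase, changed sign between the arrays, at −0.19 and 0.24. LSS, which closes the ring of lanosterol, was measured by 2 probes that differed in sign. The brighter (NM_002340) gave 0.06 and −0.18, a mean of −0.06 ± 0.17, and the dimmer (NM_001001438) gave 0.33 and 0.12, a mean of 0.23 ± 0.15, so that LSS has no settled direction.

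From lanosterol to cholesterol, 5 of the 7 measured genes (71.4%) were higher on both arrays, none was lower, and the median was 0.20. Over all measured genes 26.8% were higher and 26.7% lower on both. SC5D (NM_001024956), the desaturase that makes the last double bond of the precursor 7-dehydrocholesterol, read 8.80 with pre-miR-424 against 8.76 in control on the normal array and 9.08 against 8.39 on the swap. Nearly all of its mean of 0.36 ± 0.46 came from the swap (ratios of 0.04 and 0.69), and it was the dimmest member. HSD17B7 (NM_016371), a ketosteroid reductase of the demethylation steps, was the steadiest of the genes given in full, at 11.08 against 10.90 on the normal array and 11.16 against 10.92 on the swap. Its ratios were 0.19 and 0.24 (mean 0.21 ± 0.03, 1.16-fold), and its second measured probe gave 0.32 and 0.05. The gene has a closely related pseudogene, and cross-hybridisation was not tested. EBP, the sterol isomerase, had ratios of 0.25 and 0.14. NSDHL, the dehydrogenase that acts beside HSD17B7, had 0.12 and 0.20. CYP51A1, the lanosterol demethylase, had 0.04 and 0.36. MSMO1, the methylsterol oxidase, had −0.17 and 0.57, and DHCR7, which reduces 7-dehydrocholesterol to cholesterol, had 0.13 and −0.12. The reductase TM7SF2, left out for its outlier spot, had 0.14 and 0.06 when such spots were kept.

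The regulators split. SREBF2 (NM_004599), whose product SREBP-2 drives mainly the cholesterol genes, was the member with the most negative mean. It read 10.95 with pre-miR-424 against 11.21 in control on the normal array, and 10.57 against 11.22 on the swap. The control signals were almost the same and both pre-miR-424 signals lay below them, with ratios of −0.26 and −0.65 and a mean of −0.45 ± 0.28, or 1.37-fold lower. Of all measured genes 3.68% had a mean ratio at least as large in size, and SREBF2 ranked 253 from the bottom. INSIG1 (NM_005542), itself a known SREBP target, read 11.89 against 11.50 and 11.90 against 11.58. Its ratios of 0.40 and 0.32 (mean 0.36 ± 0.05, 1.28-fold) placed it beside HMGCS1 and SC5D in rank, opposite to SREBF2. SCAP had −0.05 and −0.25. SREBF1, whose product SREBP-1 favours the fatty acid genes, was read by 2 probes of 1 accession (NM_001005291) that differed in sign. The brighter gave 0.27 and 0.04 (mean 0.16 ± 0.17) and the dimmer 0.02 and −0.28 (mean −0.13 ± 0.21), so SREBF1 has no settled direction. By its brighter probe it is among the 13 members counted as higher on both arrays, and with the mean over each gene's probes that count was 12.

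**Figure D2:**
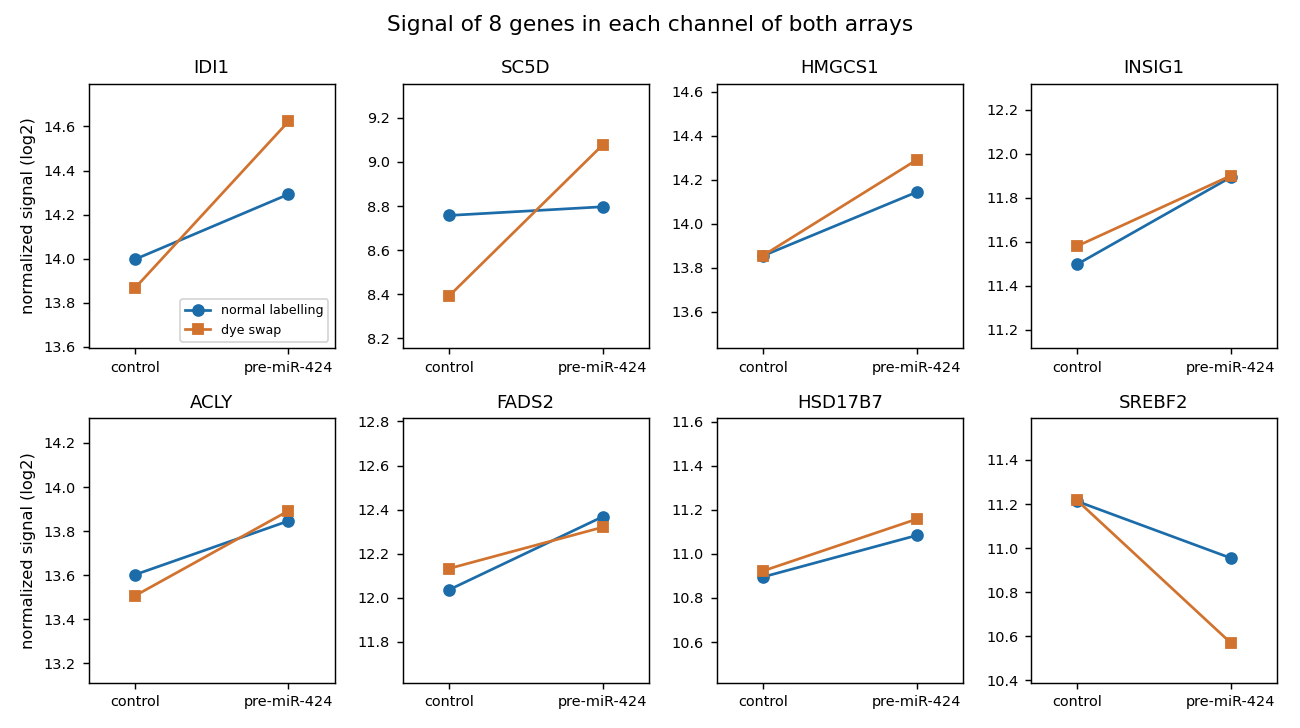
Normalized log2 signal (vertical axis) in control and pre-miR-424 channels for the 8 members with the largest mean ratio among those of equal sign on both arrays. Circles are the normal array and squares the dye swap, and every panel spans the same range. SREBF2 lies at 10.95 against 11.21 in control and, on the swap, at 10.57 against 11.22, whereas the lines of the other 7 slope upwards.

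The signals in each channel show where the arrays disagree in size. For SC5D both signals differ between the arrays, in opposite directions, and for SREBF2 the pre-miR-424 signal alone does. IDI1 was read by a single spot on each array, as was HSD17B7 on its brightest probe.

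In the fatty acid branch the members went different ways. ACLY (NM_001096), which makes the cytosolic acetyl-CoA used by both branches, read 13.85 with pre-miR-424 against 13.60 in control and, on the swap, 13.89 against 13.51. Both arrays placed pre-miR-424 above control, at ratios of 0.24 and 0.39 (mean 0.32 ± 0.10, 1.24-fold). ACACA, the carboxylase that makes malonyl-CoA, had −0.25 and 0.04 on its brighter probe and −0.10 and −0.11 on the other. FASN, the synthase that builds palmitate, had −0.20 and −0.07. SCD, the desaturase that makes oleate, had −0.01 and −0.05, and ELOVL6, which lengthens palmitate, had −0.08 and −0.01, all within the array error. The desaturases of polyunsaturated fatty acids stood apart from SCD. FADS2 (NM_004265) read 12.37 with pre-miR-424 against 12.04 in control on the normal array and 12.32 against 12.13 on the swap. FADS2 was thus higher on both, by 0.33 and 0.19 (mean 0.26 ± 0.10, 1.20-fold), and FADS1, its neighbour on chromosome 11, by 0.25 and 0.14. Of the acyl-CoA synthetases, which activate fatty acids, ACSL1 had 0.04 and −0.18. ACSL3 had −0.38 and 0.33, and was thus past the lower threshold towards Cy3 on both arrays, whichever RNA carried that dye. Of the 29 measured members it alone followed a dye at that size, as did 102 of the 13812 measured genes in Cy3 and 130 in Cy5.

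**Figure D3:**
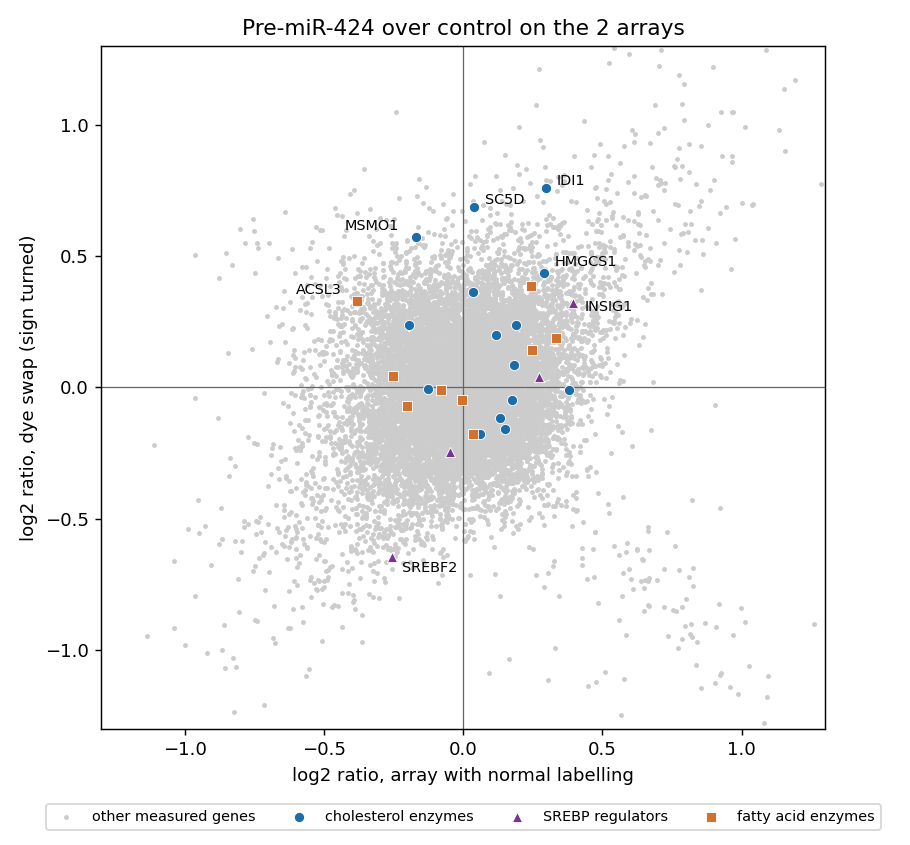
Log2 ratio of pre-miR-424 over control on the normal array (horizontal) against the dye swap with its sign turned (vertical); grey points are the other measured genes, of which a few lie beyond the axes, and coloured symbols the members by branch. Members of equal sign lie at upper right (13) or lower left (6), and ACSL3 and MSMO1 lie at upper left, where the arrays disagree.

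Other genes of these pathways were listed by role and not by how they moved. Among 13 measured sterol genes outside the 30, 5 (38.5%) were higher and 3 (23.1%) lower on both arrays, with a median of 0.04. Over all measured genes these shares were 26.8% and 26.7%. STARD4, a sterol carrier and SREBP target, had ratios of 0.22 and 0.19. On the other side stood ERG28, a scaffold of the demethylation enzymes, at −0.20 and −0.23. Of 20 further fatty acid synthesis genes 4 (20%) were higher and 7 (35%) lower on both arrays (median −0.01). They included the dehydratase HACD2 (−0.60 and −0.03), the elongase ELOVL1 (−0.26 and −0.30) and the synthetase ACSL5 (0.19 and 0.31).

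Genes that use or remove the products were also read. Of 12 genes of fatty acid oxidation 2 (16.7%) were higher and 4 (33.3%) lower on both arrays, with a median of −0.06. Over all measured genes the shares were 26.8% and 26.7%, and the difference was not tested. CPT1A (NM_001031847), which carries long-chain fatty acids towards mitochondrial oxidation, was lower by more than any synthesis gene, at −0.52 and −0.74 (mean −0.63 ± 0.15), and past the lower threshold on each array. HADHA, a subunit of the trifunctional protein, had −0.26 and −0.09, and CPT2, the inner-membrane partner of CPT1A, had −0.19 and −0.06. Among 5 genes of sterol efflux and its LXR receptors 3 (60%) were higher and 1 (20%) lower on both. The efflux pump ABCA1 (NM_005502) had 0.33 and 0.51 on its brightest probe, past the lower threshold on each array. A dimmer probe gave −0.36 and −0.005 (mean −0.18), so ABCA1 has no settled direction. By its brightest probe it is among the 3 counted as higher. MYLIP, a ubiquitin ligase induced by LXR, had 0.37 and 0.23, and the receptor NR1H2 had −0.01 and −0.32.

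**Figure D4:**
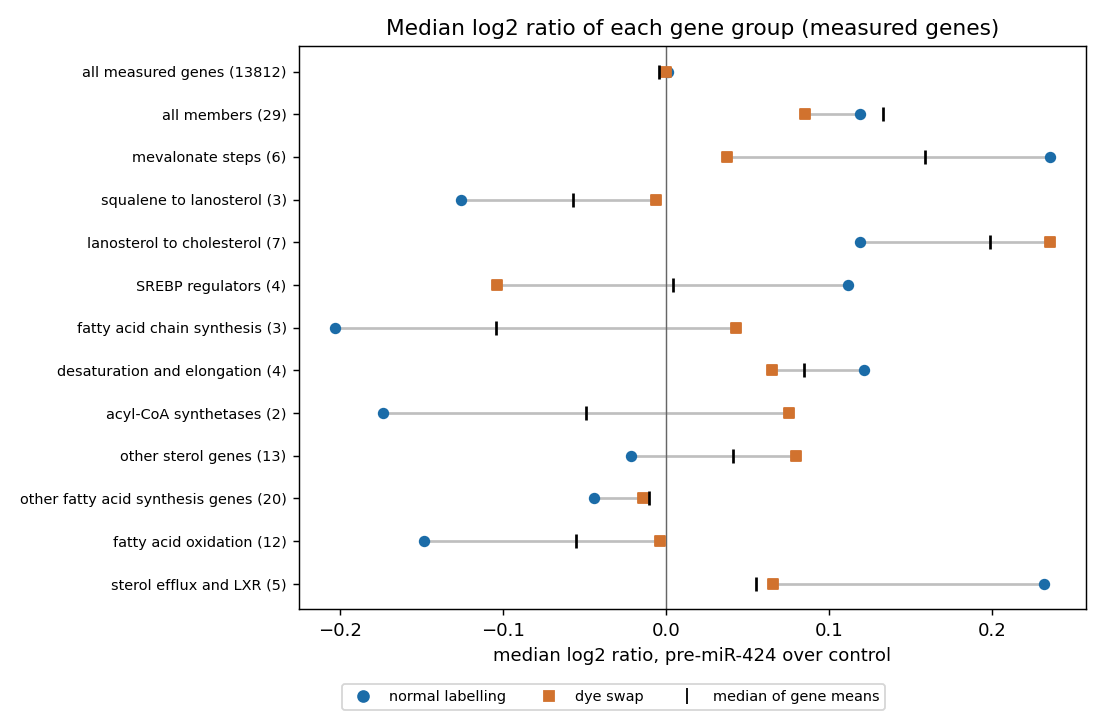
Median log2 ratio of pre-miR-424 over control (horizontal axis) in each gene group, with the number of measured genes in parentheses; circles are the normal array, squares the dye swap and ticks the median of the genes' means. The lanosterol-to-cholesterol steps (0.20) and mevalonate steps (0.16) lie furthest to the right, and only groups whose circle and square share a side of 0 have one direction on both arrays.

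The plot of the group medians also shows that the fatty acid chain genes, the acyl-CoA synthetases, the regulators and the other sterol genes have medians of opposite sign on the 2 arrays.

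Promoters were searched because SREBPs act at the start sites of these genes, next to the CCAAT-binding factor NF-Y. RefSeq windows from 250 bases before to 50 bases after a transcription start were held for 27 of the 30 genes, with 40 starts in all, as some genes have several starts whose windows can overlap. SQLE, FDFT1 and FASN had no entry. Both strands were searched for TCACNCCAC (a form of the sterol regulatory element), CACGTG (an E-box, which SREBPs can also bind) and CCAAT. These motifs do not contain each other. Windows with CCAAT made up 25 of the 40 (62.5%) for the members, and 15 of 20 (75%) for the cholesterol enzymes, against 34.6% of 35116 windows of all genes. The E-box was in 5 of the 40 windows (12.5%), against 7.26%, and the sterol element form in 2 (5%), those of SREBF2 and one start of ACSL1, against 1.13%. A match is a description of letters and not evidence of binding. The windows of 3 genes given in full that have a single start are printed here, as the 250 bases before the start on the plus strand, with matches of any of the motifs in capitals (ATTGG is CCAAT on the other strand).
SREBF2, chr22:41832855-41833104, plus strand: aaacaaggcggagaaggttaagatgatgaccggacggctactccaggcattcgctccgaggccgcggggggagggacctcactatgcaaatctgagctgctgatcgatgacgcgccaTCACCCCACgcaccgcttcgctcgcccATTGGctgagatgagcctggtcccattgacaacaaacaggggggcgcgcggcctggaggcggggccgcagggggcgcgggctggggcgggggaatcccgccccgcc
INSIG1, chr7:155297628-155297877, plus strand: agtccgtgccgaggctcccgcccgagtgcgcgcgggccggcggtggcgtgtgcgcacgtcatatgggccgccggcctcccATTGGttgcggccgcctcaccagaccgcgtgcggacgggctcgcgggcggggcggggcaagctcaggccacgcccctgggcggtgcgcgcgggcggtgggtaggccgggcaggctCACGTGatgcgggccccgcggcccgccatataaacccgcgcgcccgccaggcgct
HSD17B7, chr1:162790452-162790701, plus strand: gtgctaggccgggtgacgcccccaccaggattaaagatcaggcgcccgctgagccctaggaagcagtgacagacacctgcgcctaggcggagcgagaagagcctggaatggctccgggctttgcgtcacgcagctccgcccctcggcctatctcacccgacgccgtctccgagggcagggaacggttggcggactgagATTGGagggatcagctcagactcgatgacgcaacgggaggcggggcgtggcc

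The sterol element form of SREBF2 starts 133 bases before the transcription start, with CCAAT at 106. In INSIG1 the CCAAT letters start at 170 and the E-box at 55 bases before it, and HSD17B7 has CCAAT at 52. The members with CCAAT at any start (20 measured) had a median ratio of 0.17 and a range from −0.45 to 0.53, and the 6 without it had 0.11 and a range from −0.15 to 0.20, so the ranges overlapped. The genes with the highest and the lowest ratio, IDI1 and SREBF2, both have CCAAT in a window.

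**Figure D5:**
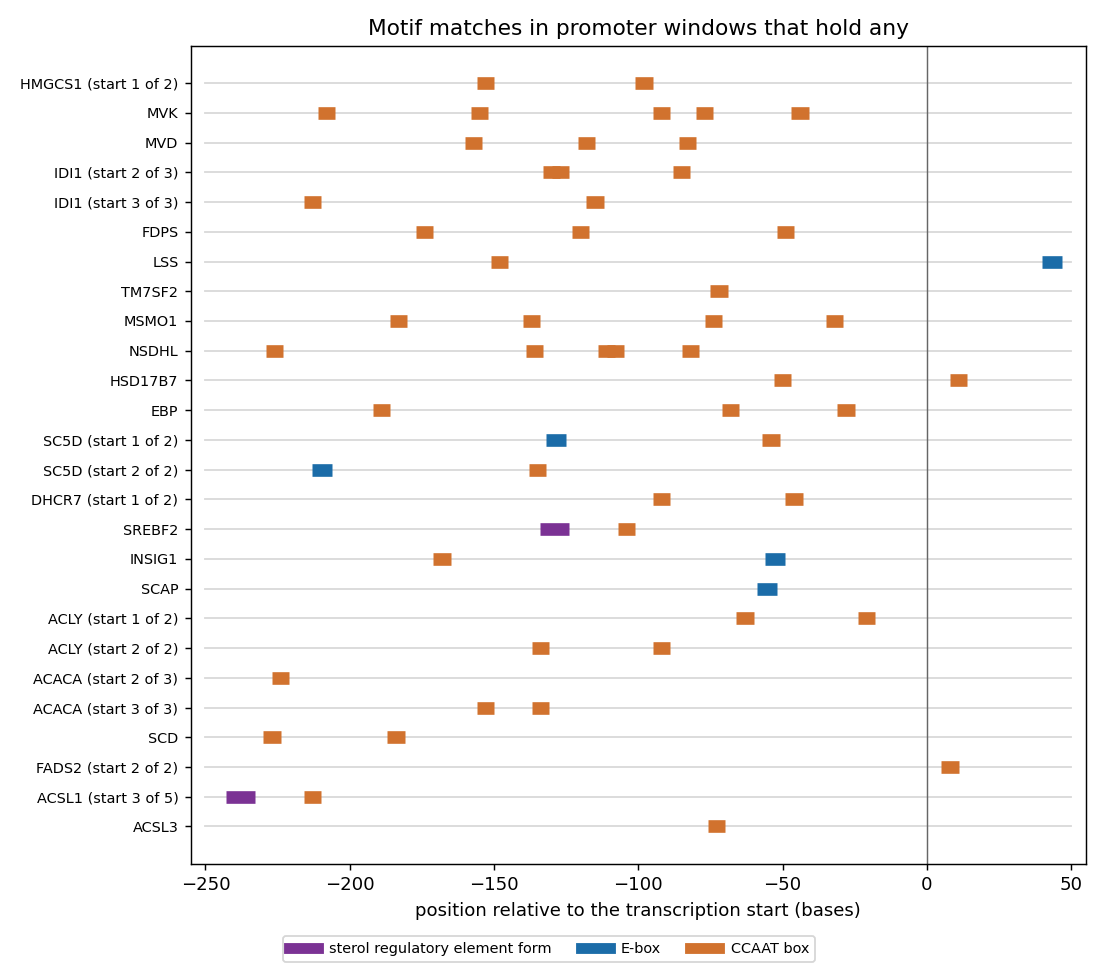
Position of each motif match relative to the transcription start (horizontal axis, bases) in the members' promoter windows that hold any match, from 250 bases before to 50 bases after the start. CCAAT boxes recur through the cholesterol enzymes, and the sterol regulatory element form appears at SREBF2 and at one start of ACSL1.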

How the data were processed

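The scanner files deposited by the authors hold, per spot, the median signal and local background of each dye as linear intensity, not normalized, and a log10 ratio that the software computed from its processed signals (Cy5 against Cy3). A deposited table of log2 ratios by the authors, of unstated steps, had Pearson correlations of 0.991 and 0.988 across probes with the ratios computed here, and its columns were not turned on the swap. The labels name limma, without settings. Here limma 3.58.1 (R 4.3.3) applied normexp with an offset of 50 and loess within each array, without control spots. Repeat spots were averaged and the sign of the swap turned. The offset draws ratios of dim probes towards 0. Signals per channel come from Aquantile scaling. Of 42405 probes 25664 were measured, and of 27134 probes carrying RefSeq accessions 25771 could be given a symbol (GRCh38.p14). The brightest measured probe stood for a gene. In simulated arrays of 58717 spots, 191 of 200 changed spots were recovered (95.5%). The changes put in were larger than the mean ratio of any member, and the simulated noise was smaller than the error of the real arrays. That share therefore does not cover ratios of the size seen in the members. Full values were given for the 8 members with the largest mean ratio of equal sign on both arrays and for members whose probes differed in sign or by over 0.5, and up to 3 genes were named per further list, some genes and markers not being reported here. Members and lists were chosen with earlier results of these data known. The number of arrays limits the precision.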

Additional observations from a re-analysis of the deposited data

How the results depend on the processing

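All 19 members of equal sign on both arrays kept the sign of their mean ratio under the 10 alternatives that use both arrays, of which centring on the median of the measured genes was added after seeing the data. SREBF1 is among them by its brighter probe, and with the mean over its probes its ratio was 0.01. Of the other members SQLE, LSS and DHCR7 changed sign. A member with a single probe has the same ratio whatever the filter on probes or the averaging over them. Those alternatives could therefore not change its sign. Under plain median centring the median of the members was 0.0873 (0.111 for cholesterol and −0.0899 for fatty acid enzymes), with 6 members higher and 1 lower on both arrays, where the median of all genes moved to −0.04. With the mean over a gene's probes the members' median was 0.0851, which is the value of LSS under that setting. LSS and SREBF1 are the members whose probes differed in sign. Their ratios were −0.06 and 0.16 by the brighter probe, and 0.09 and 0.01 by the mean over probes. With 1 array alone the members' median ranged from 0.0851 to 0.119, that of the cholesterol enzymes from 0.140 to 0.170 and that of the fatty acid enzymes from −0.00555 to 0.0431, with 10 to 12 members lower, 17 to 19 higher and 0 to 3 past 1.5-fold (IDI1, SC5D and SREBF2, on the swap). A single array needs no agreement, so its counts are larger by construction. Thresholds of 2-fold and of 0.32 on the log2 scale gave 0 members. Each ratio already pairs both RNAs within 1 array, but the comparison has 1 replicate, so no paired test across cultures was possible. Arrays of the same extracts show labelling and hybridisation error and not the spread between cultures.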
